A study of Mus musculus with 177 samples.

Results

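The 9 genes described here, of 19937 tested, belong to leukotriene metabolism, with Dpep1 (dipeptidase 1) in the leading place. They were chosen by name as a pathway, knowing that Dpep1 had one of the largest differences between hypoxia and normoxia lungs. That difference is therefore given as a description, with no test. The other 8 genes, Dpep2, Alox5, Alox5ap, Ltc4s, Lta4h, Cysltr1, Cysltr2 and Ltb4r1, were tested in every comparison, and Dpep1 was tested wherever it had not been used for the choice. All 9 genes were found on the arrays by a probe set annotated to exactly 1 gene. Dpep2 has 2 such probe sets, of which the one with the higher mean in each tissue was used, and it was not the same probe set in lung as in brain and eye. Each of the other genes has 1.

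Leukotrienes are lipid mediators made from arachidonic acid, mainly by leukocytes. 5-lipoxygenase (Alox5), helped by its activating protein (Alox5ap), makes leukotriene A4. Lta4h hydrolyses that to leukotriene B4, which attracts neutrophils through the receptor encoded by Ltb4r1. Ltc4s joins it instead to glutathione to give leukotriene C4, which is trimmed outside the cell to leukotriene D4 and then, by membrane dipeptidases, to leukotriene E4. These cysteinyl leukotrienes contract airway smooth muscle and make vessels leaky through the receptors encoded by Cysltr1 and Cysltr2. Dpep1 is a dipeptidase anchored to the cell surface. It cleaves leukotriene D4 and the dipeptide left from glutathione, is abundant in kidney tubules, and in mice has also been described as an adhesion receptor for neutrophils on lung and liver endothelium.

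The samples were Affymetrix Mouse Gene 1.0 ST arrays of lung, brain and eye from 62 newborn C57BL/6 mice at postnatal day 7. Mice of the hypoxia groups breathed gas with an oxygen fraction of 0.08 for 120 min, then 21, 40, 60 or 100% oxygen for 30 min (H21, H40, H60 and H100), then air for 150 min. Mice of the normoxia groups breathed air for the 120 min, then 100% oxygen (N100) or air (N21) for 30 min, then air for 150 min. The arrays used were 9 H21, 9 H40, 12 H60, 11 H100, 10 N100 and 9 N21 in lung, 9, 9, 11, 11, 9 and 9 of the same groups in brain, and 9, 9, 9, 11, 9 and 9 in eye. The labels describe the tissues as stored in RNAlater, although the extraction text also speaks of a kit for RNA from blood. The values were taken as those of whole tissue, in which fewer cells of a type and less RNA per cell cannot be told apart.

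Of 177 arrays, 3 had the profile of another tissue than their label and were left out. By correlation with the mean profile of each tissue, Lung H40 replicate 10 was closest to brain (r = 0.99). Brain H40 replicate 7 was closest to eye (0.96) and Eye H40 replicate 9 to lung (0.96). In Lung H40 replicate 10 the mean of 8 type 2 alveolar cell genes reached 6.00 (log2), while the other 9 H40 lungs averaged 11.58 ± 0.17 (SD), and its own Dpep1 value was 5.04. In Brain H40 replicate 7 8 neuron genes averaged 9.50, where the other 9 were at 11.65 ± 0.14 (SD), and its own Dpep1 value was 5.36. In Eye H40 replicate 9 8 lens genes averaged 5.90, where the other 9 were at 12.94 ± 0.18 (SD), and its own Dpep1 value was 7.94. In the arrays kept, these marker means lay between 11.23 and 11.79 in lung, 11.29 and 11.84 in brain and 12.29 and 13.26 in eye. The sample records fall into a first stretch ordered by group and a later remainder made of the second and the third stretch. Their stretch went with the level of 11256 genes in lung at an adjusted p under 0.05. Values within stretches are therefore given for Dpep1 in lung and Cysltr1 in eye, and in short form for some other genes. The labels do not say what the stretches are. Over all genes, 3 brain arrays of the third stretch were close to each other, H60 replicate 9, H100 replicate 8 and H100 replicate 9. Their root mean square differences were 0.13, 0.19 and 0.21 on the log2 scale, where all pairs of brain arrays had a median of 0.33 and the nearest other array of that stretch lay 0.34 from them. H60 replicate 9 and H100 replicate 8, the closest pair, had Xist, transcribed from the inactive X chromosome of females, at 10.77 and 5.17 and the Y-linked Eif2s3y at 2.87 and 7.80, so they are not 1 RNA sample. In eye H100 replicate 7 and N21 replicate 6 differed by 0.16, against a median of 0.36 over all pairs, with Xist at 11.36 and 11.40. Whether the same-sex arrays among these 5 come from separate mice was not tested. Leaving out these 3 brain and 2 eye arrays, an alternative chosen after seeing the data, changed no call among the 9 genes. In lung the closest pair differed by 0.19, beside pairs at 0.19 and 0.20 that are next in order. After these came H40 replicate 1 and N21 replicate 2, at 0.20, against a median of 0.36 over all lung pairs. That normoxia array was thus close to a hypoxia array over all genes, and the reason was not tested.

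The promoters of Dpep1 and Alox5 are shown because Dpep1 differed between hypoxia and normoxia lungs while Alox5, the enzyme that starts the pathway, did not pass the test there. Sequences are from RefSeq on GRCm38.p6 and run 5′ to 3′ on the gene's strand, from 250 bases before the annotated start to 30 bases after it. Dpep1 lies on chromosome 8 (123186235 to 123201812) and its window is chr8:123185985-123186264 on the plus strand. Alox5 lies on chromosome 6 (116410071 to 116461178) and its window is chr6:116461149-116461428 on the minus strand. Capitals mark the core letters bound by hypoxia-inducible factors.
Dpep1 promoter: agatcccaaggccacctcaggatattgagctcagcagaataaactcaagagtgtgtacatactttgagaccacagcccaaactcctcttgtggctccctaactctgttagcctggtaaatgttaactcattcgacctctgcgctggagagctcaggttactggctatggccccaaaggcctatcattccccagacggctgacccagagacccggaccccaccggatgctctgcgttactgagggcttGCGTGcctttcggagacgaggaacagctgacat
Alox5 promoter: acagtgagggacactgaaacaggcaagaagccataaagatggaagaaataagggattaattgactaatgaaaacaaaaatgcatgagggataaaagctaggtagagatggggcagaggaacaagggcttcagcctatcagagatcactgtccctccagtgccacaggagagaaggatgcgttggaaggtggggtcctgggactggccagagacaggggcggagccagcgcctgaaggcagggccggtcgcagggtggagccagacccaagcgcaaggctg
The Dpep1 window held 1 match to ACGTG or GCGTG, searched on both strands, whose first base lies 3 bases before the start. The Alox5 window held none, and the windows of Ltc4s, Lta4h, Cysltr2 and Ltb4r1 held none either. Of 32851 mouse promoter windows of this length, 13725 (41.8%) hold these letters, so a match is common. AGAACA, 1 arm of the palindromic glucocorticoid receptor element and not the whole element, is held by 17.9% of the windows. That arm and the AP-1 site TGANTCA, found in 7.46%, were each absent from all 6. A match or its lack describes the letters in this window and says nothing of a factor's binding. Windows for 6 of the 9 genes were found in the table, and those of Dpep2, Alox5ap and Cysltr1 were not used here.

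In lung, Dpep1 was higher in every hypoxia group than in both normoxia groups. Its mean log2 RMA value was 8.69 ± 0.25 in H21 (SD, n = 9), 8.53 ± 0.48 in H40 (n = 9), 8.50 ± 0.50 in H60 (n = 12) and 8.62 ± 0.72 in H100 (n = 11). It was 7.42 ± 0.46 in N100 (n = 10) and 7.50 ± 0.51 in N21 (n = 9). The order from high to low was thus H21, H100, H40, H60, N21 and N100. The 4 hypoxia means lay within 0.19 of each other, less than the SD of any of these groups, and the normoxia means within 0.08. The 1 step in this order wider than the spread between arrays was that between H60 and N21.

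The lowest, median and highest arrays were 8.36, 8.70 and 9.24 in H21, and 7.75, 8.51 and 9.37 in H40. In H60 they were 7.26, 8.48 and 9.08, and in H100 they were 6.67, 8.78 and 9.41. In N100 the same 3 values were 6.72, 7.45 and 8.26, and in N21 they were 6.99, 7.35 and 8.75. The H21 arrays all lay above the highest N100 array, whereas the other hypoxia groups overlapped N100. H21 and H40 overlapped N21 through 1 array, N21 replicate 2, which was at 8.75 while the next N21 array was at 7.65. H60 and H100 also held an array within or below the other N21 values. At the other end, H100 replicate 6 was at 6.67, below every normoxia array, while the next H100 array was at 8.31.

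**Figure D1:**
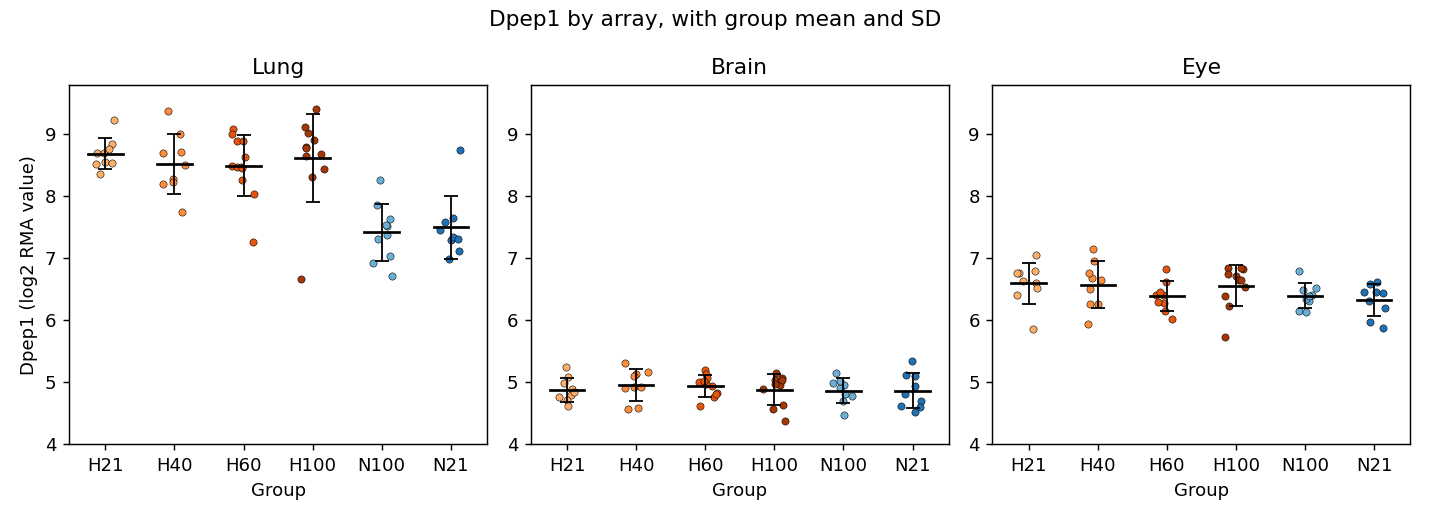
Dpep1 log2 RMA values (vertical axis) for each array by group (horizontal axis) in lung, brain and eye. Points are arrays, horizontal bars are group means and whiskers are the SD. In lung the hypoxia means lie between 8.50 and 8.69 and the normoxia means at 7.42 and 7.50, while the group means of brain lie between 4.86 and 4.96 and those of eye between 6.32 and 6.60. The tissues were normalized apart, so heights are not comparable between panels.

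Over all hypoxia lungs against all normoxia lungs, Dpep1 was 1.12 ± 0.14 higher on the log2 scale (SE of the limma fit) or 2.18-fold, beside a median difference of 0.01 over all genes. These values chose the gene and support nothing further. Of the 41 hypoxia arrays, 39 lay above the normoxia mean and 15 above the highest of the 19 normoxia arrays. By group, the difference from N21 was 1.19 ± 0.23 in H21, 1.03 ± 0.23 in H40, 1.00 ± 0.22 in H60 and 1.12 ± 0.22 in H100. Against N100 it was 1.20 ± 0.21 in H100. These comparisons share their N21 arrays, so they are not independent of each other. Without N21 replicate 2 the difference was 1.35 for H21 and 1.27 for H100.

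Dpep1 did not pass the test for any effect of the oxygen given after hypoxia. H100 differed from H21 by -0.07 ± 0.22 (95% interval -0.52 to 0.37, limma adjusted p = 1.00). The H100 mean holds replicate 6 at 6.67, and by median H100, at 8.78, lay above H21, at 8.70. No direction is therefore read from this difference, and the oxygen comparisons were not refitted with only that array left out. The slope within the hypoxia groups, written as the change between 21 and 100% oxygen, was -0.04 ± 0.21 (-0.46 to 0.38, limma adjusted p = 1.00). Without hypoxia, N100 differed from N21 by -0.08 ± 0.23 (-0.54 to 0.37, limma adjusted p = 1.00), or by 0.07 without N21 replicate 2. The interaction of hypoxia with 100% oxygen was 0.01 ± 0.32 (-0.62 to 0.64, limma adjusted p = 1.00). In lung 0% of all genes were called in each of these 4 comparisons.

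The Dpep1 difference was present in both stretches of the sample records. These arrays are the ones that chose the gene, so the values describe it and support nothing further. The means here are plain means over arrays, whereas the fit sets the mean of 4 group means against the mean of 2. In the first stretch Dpep1 averaged 8.44 ± 0.56 (SD, n = 25) in hypoxia lungs and 7.46 ± 0.55 (n = 13) in normoxia lungs, a difference of 0.98, and the groups overlapped. In the later records it averaged 8.80 ± 0.34 (n = 16) in hypoxia lungs and 7.46 ± 0.29 (n = 6) in normoxia lungs, a difference of 1.34. There the lowest hypoxia array, at 8.27, lay above the highest normoxia array, at 7.86. Both arrays that stand apart, N21 replicate 2 and H100 replicate 6, are in the first stretch. Leaving out each lung array in turn kept the difference between 1.09 and 1.20.

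**Figure D2:**
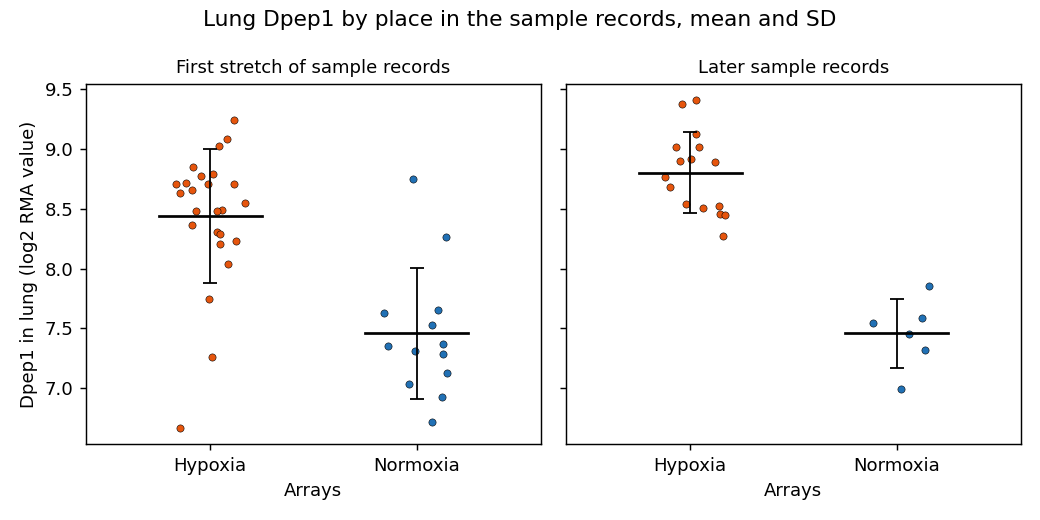
Dpep1 log2 RMA values in lung (vertical axis) for hypoxia and normoxia arrays (horizontal axis), with the first stretch of sample records on the left and the later ones on the right. Points are arrays, bars are means and whiskers are the SD. The means are 8.44 and 7.46 in the first stretch, where 1 hypoxia array at 6.67 and 1 normoxia array at 8.75 lie far from the rest, and 8.80 and 7.46 in the later records, where the groups do not overlap.

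Outside the lung Dpep1 did not pass the test in any comparison, and in brain it was among the dimmest 40% of genes. In brain it ranged over 4.37, 4.95 and 5.31 (lowest, median and highest of 40 hypoxia arrays), against 4.47, 4.86 and 5.34 of 18 normoxia arrays. Its group means were 4.88 in H21, 4.96 in H40, 4.94 in H60, 4.88 in H100, 4.87 in N100 and 4.86 in N21, which is an order without steps beyond the spread. The hypoxia difference in brain was 0.05 ± 0.06 (95% interval -0.08 to 0.18, limma adjusted p = 1.00). In eye it ranged over 5.74, 6.61 and 7.15 in 38 hypoxia arrays, against 5.87, 6.40 and 6.80 in 18 normoxia arrays. The eye means were 6.60 ± 0.33 in H21, 6.58 ± 0.38 in H40, 6.39 ± 0.24 in H60, 6.56 ± 0.33 in H100, 6.40 ± 0.20 in N100 and 6.32 ± 0.26 in N21. Neighbours in that order were closer than their SDs. The eye difference was 0.17 ± 0.08 (0.00 to 0.34), with an unadjusted limma p of 0.045 that did not hold after adjustment (adjusted p = 0.99), and 28 of 38 hypoxia arrays lay above the normoxia mean.

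Set against the other tissues in 1 fit of all arrays, the lung difference of Dpep1 exceeded that of brain by 1.07 ± 0.15 and that of eye by 0.95 ± 0.15 on the log2 scale. Both values are descriptions, since the lung difference chose the gene. Between brain and eye the difference was -0.12 ± 0.15 (limma adjusted p = 1.00). Among the other 8 genes 0 passed in any pair of tissues, where 0.451% of all genes were called for lung minus brain, 0.396% for lung minus eye and 0.01% for brain minus eye. At an unadjusted p under 0.05 there was 1, Cysltr1 in brain minus eye, at 0.23 ± 0.11 (limma adjusted p = 1.00).

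None of the other 8 genes was called in lung for hypoxia against normoxia by limma at an adjusted p under 0.05, where 1.66% of all genes were called, and 0 had an unadjusted p under 0.05. Their median difference was 0.00, beside 0.01 over all genes. The same count of 0 of 8 was found for H21 minus N21 (0.0502% of all genes called), H40 minus N21 (0.00502%), H60 minus N21 (0%), H100 minus N21 (0.0201%) and H100 minus N100 (0.105%). Of those 5 comparisons, the last had 1 member with an unadjusted p under 0.05, beside 5.96% of all genes. In H100 minus H21, N100 minus N21, the oxygen slope and the interaction, 0 of all 9 genes were called. In the interaction 1 had an unadjusted p under 0.05, beside 2.40% of all genes.

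**Figure D3:**
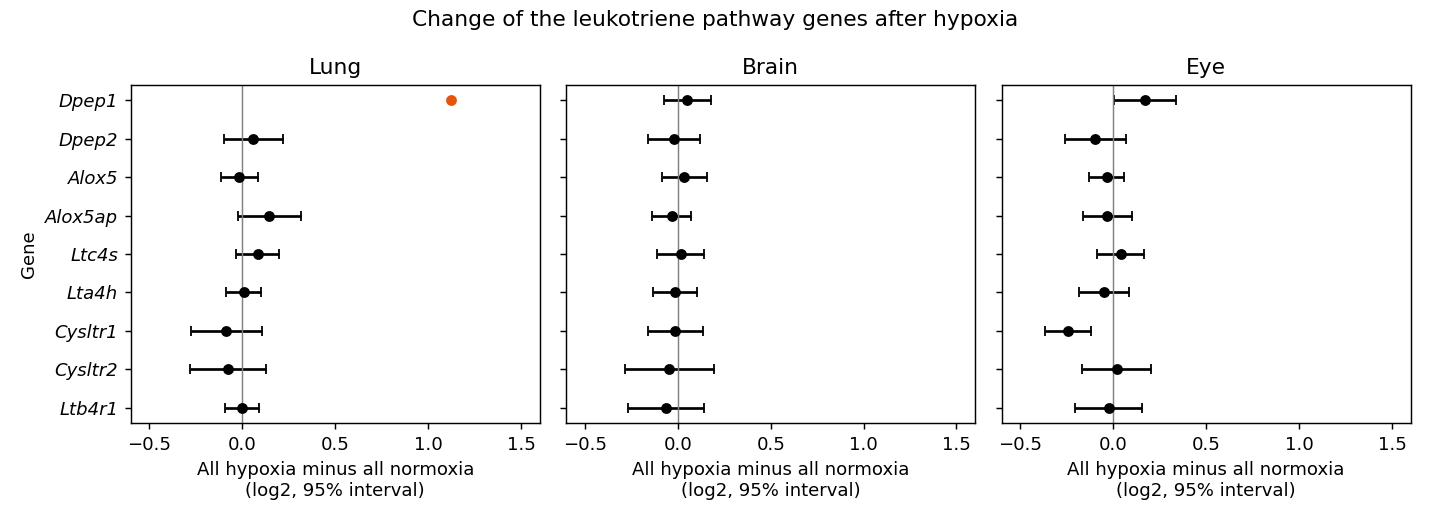
Difference between all hypoxia and all normoxia arrays (horizontal axis, log2) for the 9 genes (vertical axis) in lung, brain and eye. Points are estimates of the limma fit and bars their 95% intervals, with none for Dpep1 in lung (orange), which was not tested. There Dpep1 stands at 1.12 while the other 8 genes lie between -0.09 and 0.14, and in eye the interval of Cysltr1 lies below 0, at -0.37 to -0.12, without passing the adjusted test.

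The genes that make leukotriene A4 differed little between the lung groups. Alox5, the 5-lipoxygenase, ran over 6.48, 6.73 and 7.28 (lowest, median and highest) in hypoxia lungs, against 6.50, 6.77 and 7.02 in normoxia lungs. The groups overlapped almost fully, with 36 of 41 hypoxia arrays inside the normoxia range. Its difference was -0.02 ± 0.05, with a 95% interval of -0.11 to 0.08 (limma adjusted p = 1.00). Alox5ap, which presents arachidonic acid to that enzyme, ran over 8.10, 8.81 and 9.22 in hypoxia lungs, against 8.13, 8.61 and 9.12 in normoxia lungs. Of the 41 hypoxia arrays 10 lay above the highest normoxia array, and its group means were 8.80 in H21, 8.80 in H40, 8.76 in H60, 8.84 in H100, 8.62 in N100 and 8.69 in N21. Its difference of 0.14 ± 0.08 (-0.02 to 0.31) was the largest in size of the 8 and did not pass (limma adjusted p = 0.71).

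The same held at the branch between leukotrienes B4 and C4. Lta4h, which makes leukotriene B4, ran over 7.85, 8.19 and 8.55 in hypoxia lungs, against 7.80, 8.20 and 8.43 in normoxia lungs, a difference of 0.01 ± 0.05 (95% interval -0.09 to 0.10). Ltc4s, the leukotriene C4 synthase, ran over 5.87, 6.48 and 6.87 in hypoxia lungs, against 6.00, 6.39 and 6.70 in normoxia lungs. Its difference was 0.08 ± 0.06 (-0.03 to 0.20, limma adjusted p = 0.82), and its lowest array at 5.87 was again H100 replicate 6, while the other H100 lungs lay between 6.28 and 6.87.

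The other Dpep2 probe set was not read in lung. In the probe set used, Dpep2, the second leukotriene D4 dipeptidase of the list, did not share the Dpep1 difference. It ran over 5.16, 6.24 and 6.73 in hypoxia lungs, against 5.75, 6.12 and 6.54 in normoxia lungs, a difference of 0.06 ± 0.08 (95% interval -0.10 to 0.22, limma adjusted p = 0.98). By group its mean was 6.15 in H21, 6.18 in H40, 6.25 in H60, 6.34 in H100, 6.06 in N100 and 6.28 in N21. The N100 lungs were thus lowest and the H100 lungs highest. H100 exceeded N100 by 0.27 ± 0.12 (unadjusted limma p = 0.033, adjusted p = 0.78), and the interaction of hypoxia with 100% oxygen was 0.39 ± 0.18 (unadjusted p = 0.036, adjusted p = 1.00), neither of which passed.

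The receptors did not pass in lung either. Cysltr1, which prefers leukotriene D4, ran over 5.44, 6.63 and 7.25 in hypoxia lungs, against 6.16, 6.72 and 7.59 in normoxia lungs, a difference of -0.09 ± 0.10 (95% interval -0.28 to 0.10). Cysltr2, which binds leukotrienes C4 and D4 alike, ran over 3.59, 4.61 and 5.47 in hypoxia lungs, against 3.69, 4.73 and 5.25 in normoxia lungs, a difference of -0.08 ± 0.10 (-0.28 to 0.13). The lowest value of both receptors, and that of Dpep2, was in H21 replicate 1. Ltb4r1, the leukotriene B4 receptor, ran over 5.25, 5.57 and 5.81 in hypoxia lungs, against 5.26, 5.60 and 6.06 in normoxia lungs, and 40 of 41 hypoxia arrays lay within the normoxia range. Its interval was -0.09 to 0.09. The median value of the lung arrays was 6.25, and Cysltr2 and Ltb4r1 lay below it. Dpep2, Alox5, Alox5ap, Ltc4s, Cysltr1 and Cysltr2 shifted between the first stretch and the later records (limma adjusted p under 0.05), as did 56.5% of genes. In plain means, hypoxia minus normoxia was -0.12 in the first stretch and 0.04 in the later records for Cysltr1. For Cysltr2 it was -0.11 and 0.06. The other genes but Dpep1 kept their sign, between -0.03 and 0.15 in the first and -0.03 and 0.08 in the later.

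**Figure D4:**
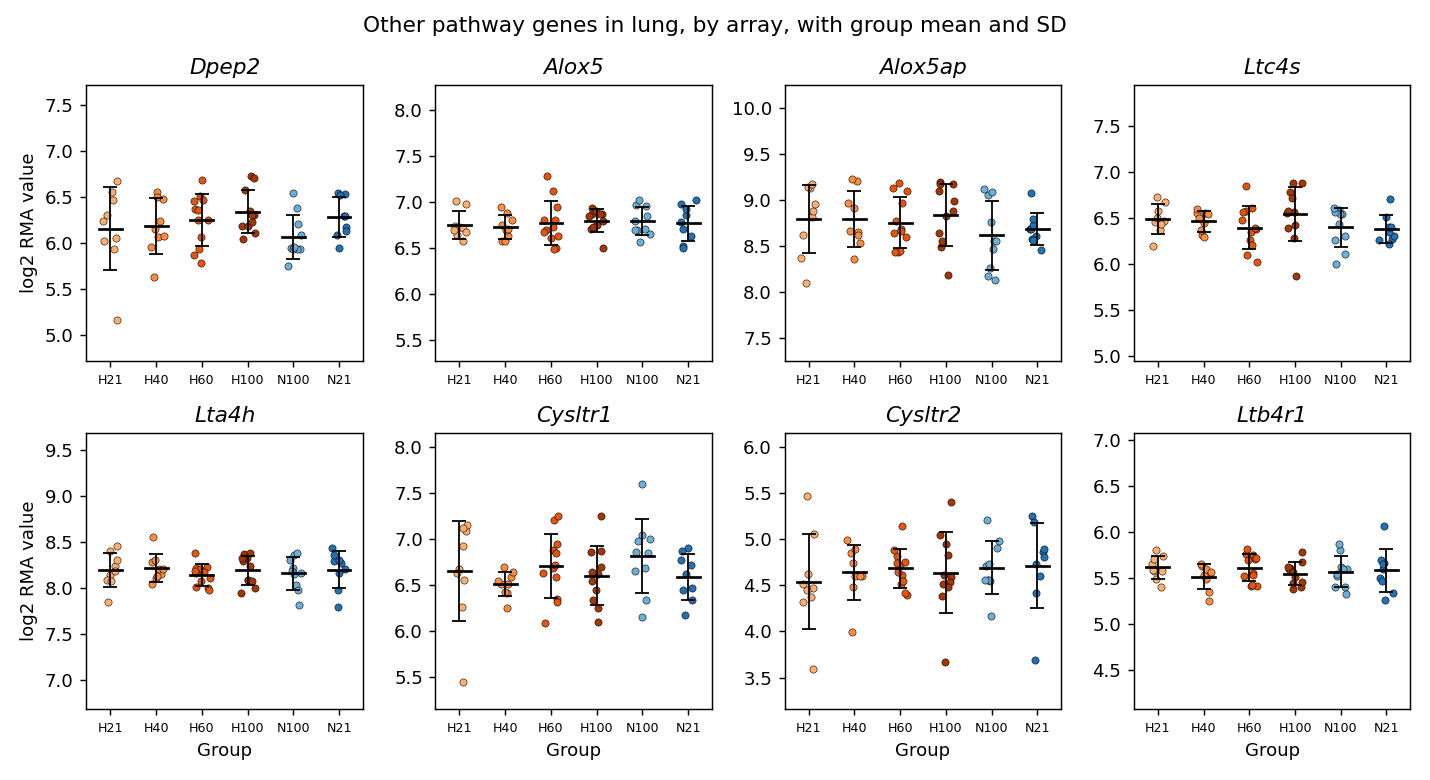
Log2 RMA values in lung (vertical axes) of the 8 genes other than Dpep1 by group (horizontal axes). Points are arrays, bars are group means and whiskers are the SD, and every panel spans the same height on the log2 scale. For each gene the hypoxia and normoxia groups overlap, with Dpep2 lowest in N100 at 6.06 and 1 low H21 array at 5.16.

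In brain 0 of 9 genes passed for hypoxia against normoxia (limma, 0.0853% of all genes called), and 0 had an unadjusted p under 0.05. Their differences lay between -0.06 for Ltb4r1 and 0.05 for Dpep1. In H100 minus N100, with 0.01% of all genes called, and in the other 8 brain comparisons, with 0%, the count was again 0 of 9, with 0 at an unadjusted p under 0.05. Cysltr2 was the widest spread in brain, at 2.70 to 4.65 in hypoxia arrays and 2.91 to 4.22 in normoxia arrays. All but Dpep2 were higher in the first stretch of sample records than in the later one in brain, where 8933 of all genes passed for a shift in either direction (limma adjusted p under 0.05). The later records hold the second and the third stretch, and these differed. Cysltr2 ran over 3.26, 3.76 and 4.65 (lowest, median and highest) in the 38 arrays of the first stretch, 3.65, 3.88 and 3.96 in the 5 of the second and 2.70, 2.94 and 3.76 in the 15 of the third, so the lower values lay in the third. Ltb4r1 averaged 5.23 ± 0.18, 5.12 ± 0.17 and 4.57 ± 0.36 in the same order. In the third stretch H60 replicate 9, H100 replicate 8 and H100 replicate 9 lay between 5.12 and 5.22 in Ltb4r1, and the other 12 arrays between 4.12 and 4.86.

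In eye the receptor Cysltr1 had the lowest unadjusted p of the 9 genes, and it was among the dimmest 40% of genes there. It ran over 5.70, 6.12 and 6.55 (lowest, median and highest) in hypoxia eyes, against 5.93, 6.44 and 6.90 in normoxia eyes. Its means were 6.09 ± 0.22 in H21, 6.09 ± 0.25 in H40, 6.28 ± 0.19 in H60, 6.06 ± 0.12 in H100, 6.40 ± 0.25 in N100 and 6.34 ± 0.25 in N21. All 4 hypoxia means were below both normoxia means, 33 of 38 hypoxia arrays lay below the normoxia mean, and the groups overlapped. The difference was -0.24 ± 0.06 (95% interval -0.37 to -0.12, unadjusted limma p = 0.00022), which missed the threshold after adjustment over all genes (adjusted p = 0.13). It passed with array quality weights (-0.27, adjusted p = 0.0066) and with the stretch of the sample records as a block (-0.26, adjusted p = 0.041), and over all alternatives the adjusted p ran from 0.0066 to 1.00. Within the first stretch Cysltr1 averaged 6.09 ± 0.21 (SD, n = 24) in hypoxia eyes and 6.35 ± 0.27 (n = 13) in normoxia eyes, and in the later records 6.19 ± 0.20 (n = 14) in hypoxia eyes and 6.44 ± 0.15 (n = 5) in normoxia eyes. The difference between H100 and N100 eyes was -0.34 ± 0.10 (unadjusted limma p = 0.00092, adjusted p = 0.33).

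For hypoxia against normoxia in eye 0 of 9 genes were called by limma, where 0.0853% of all genes were called, and 2 had an unadjusted p under 0.05, Cysltr1 and Dpep1. In the other eye comparisons the count was also 0 of 9, with 0.00502% of all genes called for H21 minus N21 and 0% for the remaining 8. At an unadjusted p under 0.05 there were 2 in H21 minus N21 and 1 each in H40 minus N21, H100 minus N21 and H100 minus N100. Over all genes the shares at that unadjusted threshold were 2.25%, 2.11%, 5.30% and 8.70% in the same order. For hypoxia against normoxia in eye that share was 5.02%. Alox5 differed by -0.04 ± 0.05, Alox5ap by -0.03 ± 0.07, Lta4h by -0.05 ± 0.07, Ltc4s by 0.04 ± 0.06 and Dpep2 by -0.10 ± 0.08. Cysltr2 and Ltb4r1 differed by 0.02 ± 0.09 and -0.02 ± 0.09, and both were higher in the first stretch of records than in either later one. Cysltr2 averaged 3.76 in the first, 3.11 in the second and 3.38 in the third, and Ltb4r1 5.62, 5.05 and 5.02.

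Genes known only by a clone or model number were left aside here. Across the 60 lung arrays, 5 of the other genes outside the list followed Dpep1 most closely. They were Wfdc1, a secreted WAP-domain protein (Pearson r = 0.90), Tinagl1, a matrix protein (0.88), Gdpd2, a glycerophosphodiester phosphodiesterase (0.88), Jam2, a junctional adhesion molecule (0.87), and Adm, the vasodilator peptide adrenomedullin (0.86). These arrays share the groups, so r was also taken after removing the means of groups and record stretches, where it was 0.86 for Wfdc1, 0.83 for Tinagl1, 0.77 for Gdpd2, 0.74 for Jam2 and 0.78 for Adm. The 2 arrays that stand apart in Dpep1 stand apart in these genes as well. The genes were picked by r over all 60 arrays, these 2 included, so this was partly fixed by the choice. Removing the means of groups and stretches keeps these 2 arrays, and r was not taken without them. Wfdc1 was at 9.23 in N21 replicate 2, against at most 8.68 in the other N21 arrays, and at 7.69 in H100 replicate 6, against at least 8.27 in the other H100 arrays. For Adm the values were 8.18 against at most 7.65 in N21, and 7.31 against at least 8.11 in H100. Tinagl1, Gdpd2 and Jam2 were likewise highest of N21 in replicate 2, at 10.20, 8.09 and 9.41, and lowest of H100 in replicate 6, at 9.03, 6.79 and 8.38.

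The other leukotriene genes followed Dpep1 less. After removal of group and stretch means, r with Dpep1 in lung was 0.50 for Ltc4s, 0.47 for Alox5ap and 0.21 for Dpep2, and between -0.09 and 0.19 for the other 5. In eye (56 arrays) it was 0.56 for Alox5, 0.51 for Lta4h, 0.47 for Ltc4s and 0.44 for Alox5ap, and in brain (58 arrays) at most 0.37, for Alox5ap. The genes most like Alox5ap in lung were chosen in the same way. They were Urod, an enzyme of heme synthesis (r = 0.78), Coro1a, an actin-binding protein of leukocytes (0.77), and Lrrc25, a membrane protein of myeloid cells (0.77). These values describe shared variation between arrays that also share tissue composition and RNA handling, and carry no test. Those of lung include N21 replicate 2 and H100 replicate 6.

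Markers of leukocytes were measured beside these genes, since leukocytes are the main source of leukotrienes. In lung the mean of 13 neutrophil genes ran over 5.80, 6.17 and 7.24 in hypoxia arrays, against 5.59, 5.89 and 6.69 in normoxia arrays. Of the 13, 1 was called higher (Mmp8, neutrophil collagenase, 0.91 ± 0.15, limma adjusted p = 0.00013), 8 were higher and 0 lower at an unadjusted p under 0.05, and the median difference was 0.26. Over all 19937 genes in lung 1.66% were called and 1794 had an unadjusted p under 0.05, in either direction, with a median of 0.01. S100a8 and S100a9, the most abundant cytosolic proteins of neutrophils, differed by 0.52 ± 0.15 and 0.47 ± 0.16 without passing. After removal of group and stretch means, r with the neutrophil mean was 0.59 for Alox5ap, 0.51 for Alox5 and 0.20 for Dpep1. The part of neutrophils in these values was not tested.

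Of the other marker lists in lung, 1 of 10 macrophage genes was called higher, Cd163, at 0.48 ± 0.10 (limma adjusted p = 0.0041), while 2 were higher and 1 lower at an unadjusted p under 0.05 and the list median was 0.00. Of 7 genes of the microglia list, some of which tissue macrophages also express, 1 was called lower, Olfml3, an extracellular protein, at -0.29 ± 0.07 (adjusted p = 0.015), with a list median of 0.00. Of 7 smooth muscle genes 1 was called higher, Tagln, at 0.22 ± 0.06 (adjusted p = 0.021), with a list median of 0.18. For endothelium 0 of 10 were called and the median was 0.03. For kidney tubule and gut epithelium, where Dpep1 is abundant, 0 of 8 were called, and the list mean ran over 5.87, 6.04 and 6.20 in hypoxia lungs, against 5.80, 6.06 and 6.14 in normoxia lungs. After removal of group and stretch means, r with Dpep1 was 0.46 for the macrophage mean, 0.36 for smooth muscle and 0.25 for endothelium. Mast cells, a main site of Ltc4s, had 0 of 8 genes called, and eosinophils 0 of 5, B and T lymphocytes 0 of 8 and platelets 0 of 5. Which lung cells hold the Dpep1 transcript was not tested. In eye 0 of 10 macrophage and 0 of 7 microglia genes were called, with median differences of 0.00 and -0.02. Over all genes there 0.0853% were called, and the lower Cysltr1 value did not pass either, so these counts say little.

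The wider eicosanoid pathway was measured with 7 further lists. They hold 59 entries, and 52 of these were tested. In lung 1 of the 52 rose in hypoxia against normoxia and 0 fell, beside 1.66% of all genes called, and their median difference was 0.02, against 0.01 over all genes. The gene that rose was Cmklr1, the receptor for chemerin, which has also been described as a receptor for the lipid mediator resolvin E1. Its mean was 8.58 in hypoxia lungs and 8.24 in normoxia lungs, a difference of 0.35 ± 0.09 (limma adjusted p = 0.015), with 34 of 41 hypoxia arrays above the normoxia mean. The call was lost with the arrays of another tissue kept (0.29, adjusted p = 0.55), in the first stretch of records alone (0.32, adjusted p = 0.23) and in the later records alone (0.42, adjusted p = 0.40).

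The steps before and after the 9 genes held no other call in lung. Of 7 phospholipase A2 genes, which release arachidonic acid, 0 were called, and Pla2g4a differed by -0.06 ± 0.06 and Pla2g10 by 0.07 ± 0.05. Of 7 other lipoxygenases and 5-lipoxygenase partners 0 were called, with Alox12e at 0.14 ± 0.09 and Cotl1, which binds 5-lipoxygenase, at -0.13 ± 0.08. Of 9 genes for forming, exporting and cleaving leukotriene C4, 0 were called. The largest were Mgst3, a glutathione transferase of the microsomes, at 0.22 ± 0.09 (unadjusted p = 0.011, limma adjusted p = 0.25), and the exporter Abcc1, at -0.13 ± 0.05 (unadjusted p = 0.016, limma adjusted p = 0.32). Of 7 genes that inactivate leukotriene B4, 0 were called, with the hydroxylases Cyp4f14 at 0.12 ± 0.11 and Cyp4f16 at -0.08 ± 0.05. In the list of related receptors that holds Cmklr1, 3 of 7 entries were tested, and Oxgr1 was at -0.04 ± 0.06.

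Among the prostanoid genes, which share arachidonic acid with the leukotrienes, 0 of 10 for making or breaking down prostanoids were called in lung, with a median difference of 0.08. The largest were Hpgd, which degrades prostaglandins, at 0.19 ± 0.07 (limma adjusted p = 0.20), and the prostacyclin synthase Ptgis, at 0.19 ± 0.08 (adjusted p = 0.38). Of 9 prostanoid receptors 0 were called, with the prostaglandin D2 receptor Ptgdr2 at 0.18 ± 0.06 (adjusted p = 0.072) and the prostaglandin E2 receptor Ptger3 at -0.17 ± 0.09 (adjusted p = 0.63). In brain and in eye 0 of the 52 genes were called, with 3 at an unadjusted p under 0.05 in each tissue. Over all genes that share was 3.18% in brain and 5.02% in eye.

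**Figure D5:**
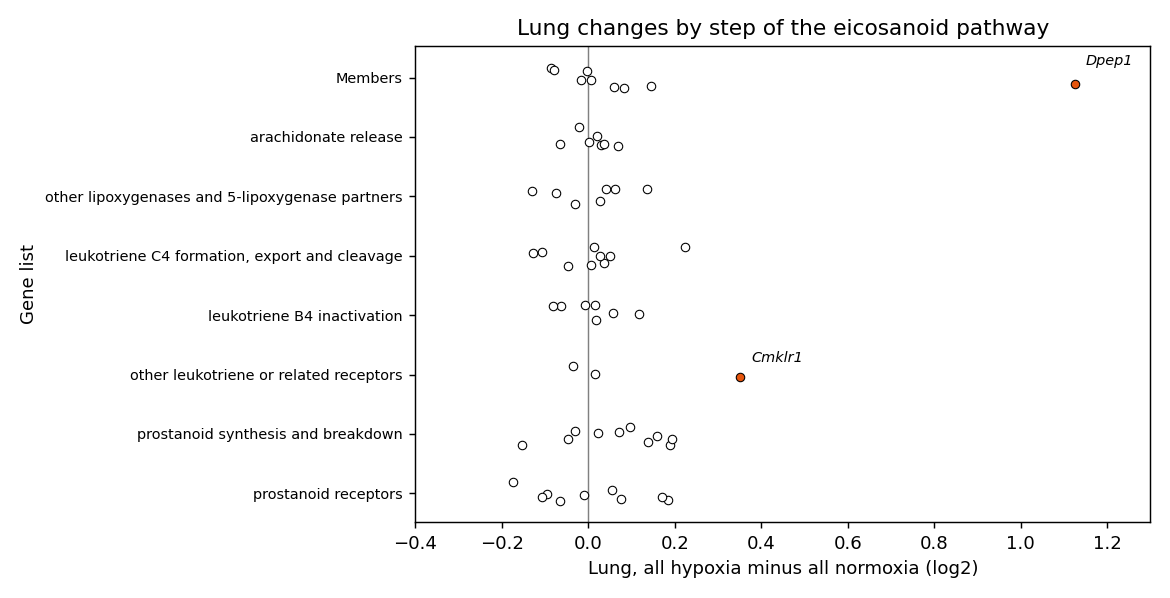
Lung difference between all hypoxia and all normoxia arrays (horizontal axis, log2) for the 9 genes and the 7 further eicosanoid lists (vertical axis). Each point is a gene, orange where named in the plot. Dpep1 at 1.12 and Cmklr1 at 0.35 lie apart, and the largest of the other values is Mgst3 at 0.22.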

How the data were processed

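The authors deposited log2 values after RMA, which corrects background, equalizes arrays and summarizes probes. Its version is not given in the sources used here. The median was 6.25 in lung arrays, 6.07 in brain arrays and 6.35 in eye arrays, so tissues were taken as normalized apart and levels were not compared between them. Of 34760 probe sets, 21640 have 1 gene symbol in the platform annotation, and taking per gene the probe set of highest mean gave 19937 genes.

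Each tissue was fitted once with limma 3.58.1 in R 4.3.3 (lmFit, eBayes, two-sided) over its 6 groups. A gene was called at a Benjamini-Hochberg adjusted p under 0.05 over all genes. Errors after a difference are standard errors. Hypoxia against normoxia sets the mean of 4 group means against that of 2. Tissues were compared in a joint fit that did not model mice shared between them. The fits were tested on simulated data with independent noise. These held no stretch shift and no outlying or mislabelled arrays, so they cannot show how the fits behave under those. Array numbers limit the precision, and arrays of a group were counted as separate mice, which the labels' numbering gives and the values do not settle for a few close arrays.

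The genes, lists, comparisons and alternatives were chosen with earlier results of these data known. Named are all 9 genes, and called genes of the pathway lists or else the 2 largest differences per list. The 5 genes most correlated with Dpep1 in lung and the 3 with Alox5ap are named too. Genes known only by a clone or model number were left aside there. Single markers were named after their values were seen. Alternatives were the 3 arrays kept, array quality weights, repeated quantile normalization, the dimmest 40% of genes left out, the replicate number or record stretch as a block, either stretch alone, arrays of low correlation left out, every probe set, sex as a covariate, a 2-group fit and each lung array left out in turn. With every probe set tested, each gene was still read at its chosen probe set, so only the adjustment and the shared spread changed. Arrays of equal number had a median correlation of deviations of 0.13 among lungs, 0.13 among brains and 0.03 among eyes, and lows down to -0.51, so the numbers were not taken to pair samples.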

Additional observations from a re-analysis of the deposited data

Results flagged for a closer look

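Of 117 groups of 4 to 10 arrays checked, 3 held an array far from the others, and chance alone gives about 1 in 20 groups. Larger groups were not checked. Dpep1 in Lung H100 replicate 6, at 6.67 with the next H100 array at 8.31, was therefore not judged by this rule. Dpep1 in Lung N21 replicate 2 was at 8.75, while the other N21 lungs lay between 6.99 and 7.65. Dpep2 in Lung H21 replicate 1 was at 5.16, while the other H21 lungs lay between 5.93 and 6.67. Cysltr2 in Eye N100 replicate 5 was at 4.24, while the other N100 eyes lay between 3.45 and 3.77. Without its array the Dpep2 difference in lung was 0.09, and Dpep2 was not called in lung without any 1 array.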

How the results depend on the processing

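The counts of called leukotriene genes were recomputed under up to 12 alternatives per tissue, which gave 344 values for 33 counts, of which 341 equalled the main ones. The other 3 concern Cysltr1 in eye, where hypoxia against normoxia gave 1 called gene with array quality weights and 1 with the stretch of sample records as a block, and H100 minus N100 gave 1 with array quality weights. The cause was not tested. Every main count was 0, and in the main fits at most 1.66% of all genes were called. Most of the agreement of the 341 values was thus fixed in advance. Leaving out each lung array in turn gave 0 called genes among the 8 each time. The replicate block kept every count of called members, with 0 in lung, 0 in brain and 0 in eye for hypoxia against normoxia, and since the numbers do not pair the samples nothing more is read from it. The Dpep1 difference in lung, fitted as the mean of 4 group means minus the mean of 2, lay between 0.95 and 1.28 over the 12 alternatives. These reuse the arrays that chose the gene, so the range is a description. The highest value was in the later records alone, where plain means over arrays differ by 1.34. Without the 3 brain and 2 eye arrays closest to each other, chosen after seeing the data, all 20 counts of called genes kept their value. The largest move of a difference was 0.052, for Cysltr2 in brain, which changed sign, as did Lta4h in brain. Of 26 differences that were not used for the choice, 19 changed sign under at least 1 alternative, so no direction is claimed for them. The background count of genes called in lung, 331, ran between 23 (first stretch alone) and 834 (array quality weights), that of brain, 17, between 0 and 41, and that of eye, 17, between 0 and 53. With the 3 arrays kept, tissue differences were called for 30 genes in lung minus brain, against 90, and for 20 in lung minus eye, against 79. In the later stretch alone, N100 of brain and of eye has 1 array, which is assumed to vary like the other groups. Leaving out the dimmest genes removes Dpep2, Cysltr2 and Ltb4r1 from the lung test. In brain it removes Dpep1, Dpep2, Alox5, Cysltr1, Cysltr2 and Ltb4r1. In eye it removes Dpep2, Alox5, Ltc4s, Cysltr1, Cysltr2 and Ltb4r1. Dim probe sets and the number of arrays limit what could be seen.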
